A study of Oryctolagus cuniculus with 30 samples.

Results

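The 56 probes described here are microarray probes of rabbit epidermis whose signal was lower in healed ear wounds kept under layered film than in healed wounds left bare, on both days measured, and which were not above a set limit at wound closure. They were chosen by the values themselves, selected on the authors' deposited table after taking log2, among the 14558 probes whose names begin with UF_Ocu_AF_, of 23369 probes in all. A probe was kept where its highest group mean was at least 9, where wounds at closure exceeded unwounded skin by less than 1, and where uncovered wounds exceeded covered wounds by at least 0.8 on day 3 and again on day 5. Of 7795 probes of that class that reached the level, 145 met both cover differences, and 89 of these exceeded the limit at closure. The 56 that were left came from 41 sequence assemblies (contigs), with 15 contigs giving 2 members each and 26 giving 1.

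All animals were female New Zealand White rabbits whose ears received superficial grids of incisions, and no genotype or other agent distinguished the groups. Every wound was first dressed with 1 layer of Tegaderm, a thin clear film that sticks to skin, and had closed 2 days after wounding. That time is day 0, so the wounds at day 0 had themselves been under film. The right ear was then bared and the left ear received 4 further layers, which means that cover and ear side cannot be told apart. Epidermis was split from dermis with 0.5 M ammonium thiocyanate and hybridised on 1-colour arrays as follows: 2 of unwounded skin, 6 of wounds at day 0, 6 of uncovered and 5 of covered wounds at day 3, and 6 of uncovered and 5 of covered wounds at day 5. The labels tie no array to an animal, so both ears of 1 rabbit may enter both arms, and the p-values speak only of the spread among these arrays. The study asked how hydration under occlusion alters gene expression in the healed epidermis.

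The epidermis is a layered sheet of keratinocytes that divide at the base and cornify at the surface, where they form the barrier to water loss. After a wound has closed, the new surface still loses water faster than intact skin, and an occlusive film slows that loss and keeps the cells below hydrated. Occlusion of healed wounds is used in rabbit ear models and in the clinic to limit scarring. The array design describes every probe as unknown and pairs none of the 56 with a gene, so members are named here by probe, no role is given to any, and the epidermal label could not be checked against keratinocyte markers. In samples of whole epidermis, fewer cells of a type and less RNA per cell cannot be told apart.

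The probes are single strands of 60 bases, and those on which the results turn are printed 5′ to 3′ as the deposited scanner files give them, in lower case, with the letters AATAAA or ATTAAA, the motifs known as polyadenylation signals, in capitals. The first set shows the probes with the largest cover differences, among them both probes of 3 contigs.
UF_Ocu_AF_113244: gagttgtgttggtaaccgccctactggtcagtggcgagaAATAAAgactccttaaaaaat
UF_Ocu_AF_113245: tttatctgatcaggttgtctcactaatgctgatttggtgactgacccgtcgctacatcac
UF_Ocu_AF_113857: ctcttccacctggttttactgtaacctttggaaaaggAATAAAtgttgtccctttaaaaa
UF_Ocu_AF_113858: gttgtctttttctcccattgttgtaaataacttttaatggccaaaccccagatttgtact
UF_Ocu_AF_102772: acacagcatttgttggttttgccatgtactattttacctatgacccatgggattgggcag
UF_Ocu_AF_107480: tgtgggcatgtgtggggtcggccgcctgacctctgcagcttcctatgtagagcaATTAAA
UF_Ocu_AF_107481: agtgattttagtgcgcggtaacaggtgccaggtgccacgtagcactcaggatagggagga
The second set shows 4 probes, each from a different contig, whose signal rose from day 3 to day 5 in both arms.
UF_Ocu_AF_111885: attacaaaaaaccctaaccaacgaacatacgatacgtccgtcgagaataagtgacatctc
UF_Ocu_AF_107087: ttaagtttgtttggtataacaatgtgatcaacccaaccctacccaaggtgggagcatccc
UF_Ocu_AF_103875: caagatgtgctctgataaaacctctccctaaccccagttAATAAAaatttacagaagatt
UF_Ocu_AF_104531: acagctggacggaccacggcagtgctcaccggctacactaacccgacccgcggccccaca
The third set shows probes that were far lower in wounds at closure than in unwounded skin, the last pair from 1 contig.
UF_Ocu_AF_105638: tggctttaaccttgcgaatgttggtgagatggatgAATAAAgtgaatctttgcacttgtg
UF_Ocu_AF_104437: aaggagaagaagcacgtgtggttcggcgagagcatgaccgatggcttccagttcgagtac
UF_Ocu_AF_112668: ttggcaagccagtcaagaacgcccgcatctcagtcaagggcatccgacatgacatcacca
UF_Ocu_AF_112669: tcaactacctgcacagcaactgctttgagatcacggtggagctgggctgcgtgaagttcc

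Probes were read as log2 of the scanner's background-subtracted signal minus each array's 75th percentile, so a value of 0 lies at that percentile and each step of 1 is a doubling. A level is comparable between arrays for 1 probe, and not between probes. The scanner called 39.7% to 50.4% of all probes well above background on an array, and 42 of the 56 members were so on all 30 arrays, with none saturated. Every member was well above background on at least 2 arrays and was therefore tested. On every array of a group, 53 members were well above background in uncovered wounds at day 3 and 46 in covered wounds at day 3, 46 in unwounded skin and 46 at day 0. At day 5 the same count was 55 uncovered and 49 covered.

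The cover differences that chose the members are given as a description. On the authors' scale the uncovered group exceeded the covered group by 0.816 to 3.267 on day 3, with a median of 1.117, and by 0.802 to 2.491 on day 5, with a median of 1.01. The difference was larger on day 3 in 38 members, reached 1 on both days in 23 and reached 2 on both days in 2. On the scanner scale, limma with Benjamini-Hochberg adjustment under 0.05 called 45 members lower under cover at day 3, where 7.23% of all 12342 tested probes were so called, and 35 at day 5, where 6.58% were. Both days were called in 34 members and neither day in 10. Every uncovered array lay above every covered array in 40 members at day 3 and 27 at day 5, against 6.23% and 5.75% of tested probes, and in 25 members on both days. No share over all tested probes was computed for the counts on both days or on neither day. Nothing is read from any of these counts, since the rule used these contrasts.

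UF_Ocu_AF_113244 had the largest cover difference on the authors' scale; the values here are on the scanner scale, where that of UF_Ocu_AF_113245 was larger. UF_Ocu_AF_113244 read -2.55, -1.62 and -0.58 as lowest, median and highest of the 6 uncovered wounds at day 3, and -7.07, -6.66, -6.46, -6.13 and -5.96 in the 5 covered wounds. At day 5 the uncovered wounds read -2.81, -2.31 and -1.3 and the covered wounds -6.87, -6.74, -6.16, -5.97 and -4.68. The arms did not overlap on either day, and under cover the scanner detected the probe on 1 of 5 arrays at day 3 and on 2 of 5 at day 5. The unwounded arrays read -6.79 and -6.49, neither well above background, while the wounds at day 0 read -5.62, -4.58 and -4.28, all 6 well above it. Levels in covered wounds thus spanned those of unwounded skin, and the wounds at closure lay below every uncovered array and, save for overlap with 1 covered array at day 5, above the covered arrays.

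The second probe of the same contig, UF_Ocu_AF_113245, had the same order of groups. It read -3.57, -2.53 and -1.62 in uncovered wounds at day 3 and -8.58, -7.87, -7.6, -6.97 and -6.64 in covered wounds. At day 5 it read -3.44, -3.16 and -2.26 uncovered and -7.75, -7.56, -7.01, -6.92 and -6.04 covered. The arms again did not overlap. Against unwounded skin, where neither array measured either probe above background, UF_Ocu_AF_113244 was at least 31.2-fold higher in uncovered wounds at day 3 and at least 19.6-fold at day 5. The bounds for UF_Ocu_AF_113245 were at least 16.9-fold and at least 12.2-fold. Each bound sets the bright group's mean against the lowest signal called well above background, or the dim probe's own signal where higher, averaged over the dim group's arrays. Such bounds, here and below, hold on the scanner scale only. On the authors' values UF_Ocu_AF_113244 had an unwounded mean of 8.431 and uncovered means of 11.681 at day 3 and 10.994 at day 5. Those of UF_Ocu_AF_113245 were 8.14, 10.737 and 10.158, and these rises were all smaller than the bounds.

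UF_Ocu_AF_113857 and UF_Ocu_AF_113858, a further pair from 1 contig, were well above background on all 30 arrays. UF_Ocu_AF_113857 read 1.28, 1.29 and 2.0 in uncovered wounds at day 3 and -1.3, -1.14, -1.12, -1.03 and -0.89 in covered wounds. At day 5 it read 0.69, 0.84 and 1.16 uncovered and -1.71, -1.08, -1.07, -0.94 and -0.75 covered. No uncovered array came within 1 log2 unit of a covered one, and the 2 unwounded arrays, at -1.55 and -0.65, enclosed all covered arrays at day 3 and 4 of 5 at day 5. UF_Ocu_AF_113858 lay 2.66 log2 units lower under cover at day 3 (SE 0.2) and 2.15 lower at day 5 (SE 0.2), and its unwounded arrays read -2.5 and -1.18.

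UF_Ocu_AF_102772, the only member on its contig, read -0.28, -0.01 and 0.48 in uncovered wounds at day 3 and -2.58, -2.48, -2.25, -2.17 and -2.16 in covered wounds. At day 5 the values were -0.97, -0.65 and 0.18 uncovered and -2.97, -2.52, -2.45, -1.88 and -1.6 covered. The arms did not overlap, and the unwounded arrays at -2.8 and -2.16 lay below every uncovered array. UF_Ocu_AF_107480 and UF_Ocu_AF_107481, from 1 contig, differed less. UF_Ocu_AF_107480 read -1.26, -1.0 and -0.22 uncovered and -2.86, -2.7, -2.68, -2.57 and -2.28 covered at day 3. At day 5 it read -0.93, -0.75 and -0.56 uncovered and -2.77, -2.57, -2.17, -1.98 and -1.61 covered, again without overlap.

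UF_Ocu_AF_102169 and UF_Ocu_AF_102168, from 1 contig, were not detected under cover at day 3. On the 5 covered arrays, none of them well above background for either probe, UF_Ocu_AF_102169 read -9.72, -9.27, -8.89, -8.81 and -8.68. The 6 uncovered arrays read -6.13, -5.09 and -3.95, with 5 of them well above background. On the scanner scale uncovered wounds were at least 3.29-fold higher for UF_Ocu_AF_102169 and at least 4.88-fold higher for UF_Ocu_AF_102168. On the authors' values the differences were smaller than these bounds, at 1.255 and 1.317 log2 units. These probes were dim at closure too, with 4 of 6 arrays well above background, and their 2 unwounded arrays differed from each other by 2.85 and 3.2 log2 units.

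Over all 56, the median difference from the unwounded mean was computed on each array. It was -0.04 and 0.04 on the unwounded arrays, and 0.07, 0.32 and 0.48 as lowest, median and highest of the wounds at day 0. The uncovered wounds read 1.19, 1.42 and 1.79 at day 3 and 1.27, 1.36 and 1.6 at day 5. The covered wounds read -0.36, -0.08, -0.07, 0.0 and 0.16 at day 3 and -0.61, -0.12, 0.11, 0.33 and 0.56 at day 5. Covered and uncovered arrays did not overlap, as the rule requires of the means, and the covered arrays lay on both sides of unwounded skin. In 33 members the covered mean lay within 0.5 log2 units of the unwounded mean at day 3, and in 33 at day 5. The uncovered mean did so in 8 and in 1. No such count was made over all tested probes.

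Tests against unwounded skin reused arrays that the rule had picked as high or low, so the choice of members favours a rise in uncovered wounds, and the counts stand as descriptions. In uncovered wounds at day 3, 36 members were higher than unwounded skin, where 7.6% of all tested probes were, and none was lower, where 6.1% were (limma, Benjamini-Hochberg; at an unadjusted p under 0.05 the counts were 44 and 0). At day 5, 35 members were higher against 21.9% of tested probes, and none was lower against 10.4%, with 46 and 0 unadjusted. In covered wounds at day 3 no member was called in either direction, where 1.6% of tested probes were higher and 0.956% lower; unadjusted, 5 were higher and 4 lower. In covered wounds at day 5, 4 members were higher against 6.6% and none lower against 1.27%, with 5 and 2 unadjusted. The median change from unwounded skin was 1.49 and 1.35 log2 units in uncovered wounds at day 3 and day 5, and -0.05 and 0.19 in covered wounds (the last was -0.03 with scaling over all probes and -0.01 on the authors' values), while the medians over all tested probes were 0.05, 0.31, 0.09 and 0.26. In 27 members the uncovered wounds were called higher on both days and the covered wounds on neither. No share over all tested probes was computed for this joint count, so it does not mark the members out.

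With only 2 unwounded arrays these counts rested on each of them, and when 1 is left out the other is assumed to vary as the other groups do. Without unwounded replicate 2 the count higher in uncovered wounds at day 3 dropped from 36 to 13 and at day 5 from 35 to 20, while 2.33% and 7.07% of all tested probes were then called in either direction. Without unwounded replicate 1 the members called in covered wounds went from 0 to 7 at day 3, of which 4 were higher and 3 lower, and from 4 to 11 at day 5, of which 8 were higher and 3 lower, beside 15.3% and 16.5% of all tested probes. With the slide as a block, 21 members were called in uncovered wounds at day 3, and the share of all tested probes is not reported here. The 2 unwounded arrays differed by over 1 log2 unit in 23 members and by over 2 in 9. The widest gaps were in UF_Ocu_AF_107034, at -1.64 and -7.2, UF_Ocu_AF_106743, at -0.23 and -5.11, and UF_Ocu_AF_104093, at -1.44 and -6.15. The 2 unwounded arrays differed in slide and scan day. Unwounded replicate 2 shared both only with covered day 5 replicate 1, so slide, scan day and sample cannot be told apart. That covered array was the lowest of its group for UF_Ocu_AF_106743, at -3.2, and UF_Ocu_AF_104093, at -5.21. It was the highest for UF_Ocu_AF_107034, at -1.06.

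At closure the members were limited by the rule, so the following is a description too. On the authors' scale the wounds at day 0 differed from unwounded skin by -2.35 to 0.978, with a median of 0.322; 19 members were lower, 6 by more than 1, and 21 were higher by 0.5 or more. On the scanner scale 13 members were called higher at closure, where 17.1% of tested probes were, and 6 lower, where 20.2% were, and 6 members exceeded unwounded skin by 1 or more. The label that these probes were not raised by wounding thus holds as the rule's limit, and not as an absence of any rise. Without unwounded replicate 2, where the lone unwounded array is assumed to vary as the other groups do, the 19 called members became 9, beside 20.9% of all tested probes.

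From closure to day 3 the arms parted. In uncovered wounds 44 members were higher at day 3 than at day 0, against 20.5% of tested probes, and none was lower, against 15.1% (limma; 47 and 1 unadjusted). In covered wounds 11 members were higher, against 26.3%, and 21 were lower, against 18.2%. The median change was 1.26 log2 units uncovered and -0.14 covered, beside 0.13 and 0.17 over all tested probes. Of the 44 members higher without cover, 12 were lower with cover, 11 were higher with cover as well, and 21 were not called with cover. A further 9 members were called only in the covered arm, where they were lower, and 3 were called in neither. The same caution on the choice of members applies, and no share over all tested probes was computed for the joint counts of both arms.

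Members were also described by their call at closure. Such a split uses the arrays at day 0, so it favours an increase from day 0 in members called lower, and the values are given as a description. The 6 called lower include UF_Ocu_AF_105638, which read -1.38 and 0.47 in unwounded skin and -3.58, -3.24 and -2.98 at day 0. At day 3 it read -1.11, -0.12 and 1.03 uncovered and -2.62, -2.01, -1.09, -0.97 and -0.02 covered. All wounds at day 0 lay below all other arrays, and both arms lay nearer the unwounded arrays at day 3, with overlap between them. UF_Ocu_AF_104437 read -2.16 and -1.25 in unwounded skin, -5.25, -4.32 and -3.33 at day 0, -1.79, -0.96 and 0.13 in uncovered wounds at day 3, and -3.03, -2.78, -2.33, -1.55 and -1.06 in covered wounds. UF_Ocu_AF_112668 and UF_Ocu_AF_112669, from 1 contig, were lower at closure by 2.76 and 2.72 log2 units, and 4 and 3 of the 6 arrays at day 0 were well above background. Over the 6 members called lower the median change from closure to day 3 was 3.0 log2 units uncovered and 1.8 covered, and the median difference from unwounded skin at day 3 was 0.37 and -0.79. They were not uniform, as UF_Ocu_AF_101210 changed by -0.04 from closure to day 3 under cover, and not alone, as UF_Ocu_AF_113898, not called at closure, had a change of -1.65 there and of 1.85 from closure to day 3 under cover.

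For the 13 members called higher at closure the split favours a decrease after it in the same way. Their median change from closure to day 3 was 0.7 log2 units uncovered and -0.91 covered, and against unwounded skin they stood at 2.02 and 0.0. They include UF_Ocu_AF_113244, UF_Ocu_AF_113245, UF_Ocu_AF_113857, UF_Ocu_AF_113858 and UF_Ocu_AF_102772. The remaining 37 members had median changes from closure to day 3 of 1.24 uncovered and 0.09 covered.

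From day 3 to day 5 few members were called within each arm. In uncovered wounds 6 members rose, against 28.4% of tested probes, and 7 fell, against 16.4%. In covered wounds 5 rose, against 15.1%, and 2 fell, against 7.19%. The rule set no limit on these contrasts, although it used their arrays. The median change was -0.11 uncovered and 0.25 covered, beside 0.27 and 0.12 over all tested probes. The split of these calls moved with the processing: without cover it was 4 higher and 12 lower with scaling over all probes, 5 and 10 with quantile normalization or the slide as a block, 6 and 14 on the authors' values, 2 and 4 with normexp, and 5 and 4 with no filter on dim probes. With cover it was 12 and 1 with the slide as a block, and 4 and 3 with quantile normalization. Without uncovered day 3 replicate 5 the uncovered calls numbered 7 in place of 13, and without covered day 5 replicate 1, or replicate 4, the covered calls numbered 11 in place of 7. The shares of all tested probes called under these settings are not reported here. A shift of the members alone is thus not set apart from a shift of all probes.

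The rises between the days were led by 4 members from 4 contigs, and no second probe of these contigs showed the rise under cover. Without cover all 4 had also risen from closure to day 3, by at least 6.75-fold for UF_Ocu_AF_111885 and at least 4.45-fold for UF_Ocu_AF_107087. For UF_Ocu_AF_103875 and UF_Ocu_AF_104531, dim at closure, that change was 3.02 and 2.92 log2 units. UF_Ocu_AF_111885 was not well above background on any array of unwounded skin, wounds at day 0 or covered wounds at day 3, where it read -8.58, -8.55, -8.29, -7.42 and -7.17. In covered wounds at day 5 it read -5.92, -3.27, -3.03, -2.65 and -0.99, all above every covered array at day 3, a rise of at least 11.8-fold (adjusted p = 1.24e-05, limma). In uncovered wounds it went from -5.94, -4.62 and -1.86 at day 3 to -1.93, -1.81 and -0.58 at day 5, a log2 change of 2.53 (SE 0.61, adjusted p = 0.00178, limma), with 1 array at day 3 inside the range of day 5; with normexp background correction this change was 1.97 and no longer called. UF_Ocu_AF_107087, also undetected in those 3 groups, rose by at least 7.9-fold under cover (adjusted p = 4.09e-05, limma). Its change without cover was 2.36 (SE 0.61, adjusted p = 0.00341, limma), with 4 of 6 uncovered arrays at day 3 well above background. With normexp neither of its rises was called, at log2 changes of 2.4 with cover and 1.63 without. The change of 2.4 is smaller than the bound of 7.9-fold, which holds on the scanner scale only. On the authors' values the covered means went from 7.985 at day 3 to 10.236 at day 5 for UF_Ocu_AF_111885. For UF_Ocu_AF_107087 they went from 7.993 to 9.857, and both rises were smaller than the bounds given here.

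UF_Ocu_AF_103875 and UF_Ocu_AF_104531 were dim at closure, with 1 and 2 of 6 arrays well above background. In covered wounds at day 3, UF_Ocu_AF_103875 was detected on 2 of 5 arrays and UF_Ocu_AF_104531 on all 5, so the first change below rests partly on signal near background. UF_Ocu_AF_103875 rose by 3.25 log2 units under cover (SE 0.57, adjusted p = 0.000269, limma) and by 2.26 without it (SE 0.52, adjusted p = 0.00131, limma). UF_Ocu_AF_104531 rose by 3.04 (SE 0.58, adjusted p = 0.000615, limma) and by 2.08 (SE 0.53, adjusted p = 0.00277, limma). The 4 probes ordered the arrays alike: among uncovered wounds at day 3, replicate 2 was lowest and replicates 5 and 6 highest for each, and among covered wounds at day 5, replicate 1 was lowest and replicate 3 highest for each. They were the only 4 members called higher in covered wounds at day 5 than in unwounded skin, by at least 11.1-fold and at least 7.12-fold for UF_Ocu_AF_111885 and UF_Ocu_AF_107087, and by 2.54 and 2.63 log2 units for UF_Ocu_AF_103875 and UF_Ocu_AF_104531. None of these 4 was called with normexp, and 2 were with quantile normalization, the authors' values, no filter on dim probes, or slide or replicate number as a block. For UF_Ocu_AF_103875 the unwounded arrays read -6.61 and -4.56, and only 1 of them was well above background, so its change of 2.54 is uncertain. UF_Ocu_AF_112668 was the fifth member to rise in both arms, by 1.21 log2 units under cover (adjusted p = 0.0279, limma) and by 0.98 without it (adjusted p = 0.0281, limma).

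UF_Ocu_AF_107225 was the single member that fell in both arms. It went from -0.38, 0.55 and 0.91 at day 3 to -0.88, -0.51 and -0.47 at day 5 in uncovered wounds, a log2 change of -1.01 (SE 0.21, adjusted p = 0.000489, limma). In covered wounds it went from -0.95, -0.73, -0.31, -0.3 and -0.09 to -1.63, -1.6, -1.46, -1.3 and -0.91, a change of -0.91 (SE 0.23, adjusted p = 0.00727, limma). The days did not overlap without cover, and under cover 1 array at day 3 lay inside the range of day 5. The other 6 falls came without cover. The largest of them were those of UF_Ocu_AF_104226, by a change of -0.90 (SE 0.25, adjusted p = 0.00553, limma), and of UF_Ocu_AF_104227 from the same contig, by -0.75 (adjusted p = 0.0142, limma), which was no longer called without uncovered day 3 replicate 5. The remaining 4, UF_Ocu_AF_105175, UF_Ocu_AF_102772, UF_Ocu_AF_113857 and UF_Ocu_AF_113858, had log2 changes of -0.69, -0.60, -0.58 and -0.50. UF_Ocu_AF_111695 fell under cover, by a change of -0.82 (adjusted p = 0.0322, limma), and lost that call when any of 4 covered arrays was left out.

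Whether the cover difference itself changed between the days was tested as an interaction. No member was called, where 0.0162% of tested probes were higher and 0.105% lower (limma, Benjamini-Hochberg); at an unadjusted p under 0.05, 4 members were higher and none lower. The median change of the difference was 0.27 log2 units toward a smaller deficit under cover, with 40 members above 0 and 16 below, while the median over all tested probes was -0.08. The rule kept only probes with a difference of at least 0.8 on both days. It thus left out probes whose difference appeared or vanished between the days, and nothing is read from these values.

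A pair of members stood apart from the common order of groups. UF_Ocu_AF_104870 read 1.26 and 1.62 in unwounded skin and 1.23, 2.3 and 4.87 at day 0. At day 3 it read 0.64, 1.13 and 2.88 uncovered and -1.28, 0.23, 0.38, 0.93 and 1.14 covered. At day 5 it read -0.25, 0.9 and 1.71 uncovered and -1.57, -1.26, -0.97, 0.1 and 1.77 covered, so the arms overlapped on both days and the uncovered mean lay below the unwounded one. UF_Ocu_AF_104871, from the same contig, gave uncovered means of 0.91 and 0.36 at day 3 and day 5 and covered means of -0.14 and -0.84, beside 1.37 in unwounded skin. On both probes wound replicate 3 at day 0 was the highest of all 30 arrays, at 4.87 and 4.59.

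In the 15 contigs with 2 members, the cover differences of the 2 probes differed by 0.03 to 0.36 log2 units at day 3, with a median of 0.12, and by 0.0 to 0.23 at day 5, with a median of 0.06; the rule had chosen both probes by these differences, so nothing is read from their likeness. The 26 contigs with 1 member carried 27 other probes, of which 9 were below the rule's level of 9. Of the 18 others, 16 were lower under cover on both days on the authors' scale, 7 reached 0.8 on 1 day and 1 on both. UF_Ocu_AF_110296, on the contig of UF_Ocu_AF_110295, was higher under cover on both days, with differences of -0.121 and -0.543. UF_Ocu_AF_105245, on the contig of UF_Ocu_AF_105246, had differences of 1.152 at day 3 and -0.192 at day 5. UF_Ocu_AF_103876 had differences of only 0.142 and 0.225, and its covered mean was -5.59 at day 3 and -5.77 at day 5. It lies on the contig of UF_Ocu_AF_103875, which rose between the days. UF_Ocu_AF_111884, UF_Ocu_AF_107086 and UF_Ocu_AF_104530 lie on the contigs of UF_Ocu_AF_111885, UF_Ocu_AF_107087 and UF_Ocu_AF_104531. They were not well above background on any array. The rises under cover were thus not seen on a second probe of any of these contigs. The probe that met both thresholds, UF_Ocu_AF_102045, was kept out by its difference at closure of 1.139. Probes of a contig come from 1 assembled sequence and were read on the same arrays. They need not measure 1 transcript, and they are not independent replicates.

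In sequence the members resembled other bright probes of their class, with a few differences given as description. The median GC content was 45.0%, between 35.0% and 73.3%, beside a median of 45.0% over the whole class and 43.3% over the 7795 class probes that reached the level of 9. AATAAA stood on the printed strand in 11 of 56 members (19.6%), in 8.59% of the class and in 13.0% of its bright probes. AATAAA or ATTAAA stood in 13 members (23.2%), against 11.8% and 17.0%. On the opposite strand either motif stood in 5 members (8.93%), against 6.27% and 7.63%. A match is only a run of letters, members of 1 contig are not independent, and a window of 60 bases leaves most of each transcript unread. The letters rc stood in the design's systematic name for 50 members (89.3%), against 64.5% of the class and 72.0% of its bright probes.

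The thresholds cut through a continuous range. Just inside the day 3 threshold lay UF_Ocu_AF_112669 at 0.816, UF_Ocu_AF_108066 at 0.821 and UF_Ocu_AF_112318 at 0.829, and just outside it UF_Ocu_AF_111626 at 0.766, UF_Ocu_AF_104769 at 0.755 and UF_Ocu_AF_102611 at 0.74. At day 5 the innermost were UF_Ocu_AF_113550 at 0.802, UF_Ocu_AF_108066 at 0.806 and UF_Ocu_AF_108680 at 0.809. The nearest excluded were UF_Ocu_AF_111201 at 0.781, UF_Ocu_AF_110183 at 0.779 and UF_Ocu_AF_110956 at 0.772. UF_Ocu_AF_110956 shares a run of bases with the members UF_Ocu_AF_112133 and UF_Ocu_AF_110295. These members share 18 bases with each other although their contigs differ, so different contigs need not be separate sequences. At closure UF_Ocu_AF_104870 at 0.978, UF_Ocu_AF_107225 at 0.966 and UF_Ocu_AF_102772 at 0.917 were kept, while UF_Ocu_AF_100866 at 1.059, UF_Ocu_AF_102045 at 1.139 and UF_Ocu_AF_104833 at 1.277 were not. The level threshold kept UF_Ocu_AF_102169 at 9.157, UF_Ocu_AF_102168 at 9.175 and UF_Ocu_AF_101218 at 9.738 and excluded no probe that met the other 3 conditions. A minimum difference of 1 in place of 0.8 on both days left 23 of the 56.

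The arrays lay on 11 slides scanned on 3 days, and 3 slides held both arms at each day. Within slides the covered array or arrays were lower in 54 to 56 of the 56 members at day 3, with median differences of -1.25, -1.11 and -1.82 log2 units on the 3 slides. At day 5 they were lower in 50 to 53 members, with medians of -0.78, -0.79 and -1.13. The difference at day 5 within slides was thus smaller on each of the 3 slides than the median of -1.16 over all arrays, while at day 3 the median over all arrays was -1.25. Arrays of 1 group correlated at 0.915 to 0.994 across tested probes.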

How the data were processed

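Epidermal RNA, labelled with Cy3, was read on 30 single-colour Agilent arrays. Per the file headers, Agilent Feature Extraction 10.1.1.1 made the signal intensity of each spot by background subtraction and detrending, and the scanner's flags (well above background, saturated, outlier) are used as deposited. The authors' deposited series table holds linear intensity values, 1 per probe and array; limma is named in the submitters' processing notes without settings. Its log2 values were used for the rule alone and as an alternative. The 56 members, and the comparisons, were chosen with earlier results of these data known.

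Outlier spots were left out, spots of a probe were averaged, and log2 signals were scaled to each array's 75th percentile over the 7446 probes that every array detected, since most probes were not detected on 28 of 30 arrays. The 12342 probes that 2 or more arrays detected entered 1 limma 3.58.1 fit in R 4.3.3 of all 30 arrays in 6 groups without a block, with 2-sided moderated tests and Benjamini-Hochberg adjustment over all tested probes (called under 0.05). The fit was tested on simulated data. The number of arrays limits the precision. Of 1680 member values, 1 was left out as an outlier spot. Members named with values were the 10 with the largest smaller cover difference, the 5 brightest, the 3 highest and 3 lowest at closure, those nearest each threshold, the 3 largest called rises and falls between days, and probes sharing a contig or sequence; some of these are not reported here. The widest gaps between unwounded arrays were picked after their values were seen. Gene lists and cell type markers could not be used, as 889 probes carry an accession and 0 of these matched the RefSeq table given. Alternatives were quantile normalization, scaling over all probes, normexp background correction (offset 50), the authors' values, no filter on dim probes, slide or replicate number as a block, each array left out, and other thresholds of the rule.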

Additional observations from a re-analysis of the deposited data

Results flagged for a closer look

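In groups of 4 to 10 arrays, 4 of the 55 groups examined, for the 10 members with the largest cover difference and for the median over all members, held an array far from the rest; chance gives about 1 in 20. UF_Ocu_AF_107480 read -0.22 in uncovered wound replicate 2 at day 3, the highest of its 6 arrays by a gap over most of their range. UF_Ocu_AF_107481, from the same contig, read -1.18 in that same array, again the highest of 6. UF_Ocu_AF_107481 also read -3.48 in covered wound replicate 5 at day 3, above the other 4 covered arrays. UF_Ocu_AF_111885 read -8.98 in wound replicate 4 at day 0, the lowest of 6 arrays, none of which was well above background.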

How the results depend on the processing

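No count of calls changed the direction of its majority except that between days without cover, from 6 higher and 7 lower to 5 and 4 with no filter on dim probes, 4 and 3 without uncovered day 3 replicate 5, and 6 and 5 or 6 and 4 without uncovered day 5 replicate 3 or 5; no named change between days turned its sign. The members' median change in covered wounds at day 5 from unwounded skin turned from 0.19 to -0.03 with scaling over all probes and -0.01 on the authors' values, and that in covered wounds at day 3 from -0.05 to 0.004 without covered day 3 replicate 3. Scaling over all probes also moved the median of all tested probes, from 0.27 to 0.03 between days without cover and from 0.31 to -0.01 for uncovered wounds at day 5 against unwounded skin; the members' medians there went from -0.11 to -0.34 and from 1.35 to 1.04. Members called from day 3 to day 5 in uncovered wounds went from 13 to 6 with normexp and 20 on the authors' values, and in covered wounds from 7 to 4 with normexp and 13 with the slide as a block. Against unwounded skin, uncovered wounds at day 3 went from 36 to 21 with the slide as a block. Covered wounds at day 5 went from 4 to 0 with normexp and to 2 with quantile normalization, the authors' values, no filter on dim probes, the slide block or the replicate block. The cause was not tested, and the shares of all tested probes called in these settings are not reported here. A minimum difference of 1 left 23 members by construction. With each array left out in turn, the counts ranged from 7 to 18 and 5 to 11 between days without and with cover, 0 to 0 for the interaction, 40 to 46 and 30 to 35 from closure to day 3, 13 to 38 and 20 to 37 for uncovered wounds against unwounded skin at day 3 and day 5, and 0 to 7 and 2 to 11 for covered wounds; the median cover difference ranged from -1.366 to -1.2 at day 3 and from -1.298 to -1.003 at day 5. 

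Same-numbered arrays of different groups had a median correlation of deviations of -0.011 over 63 pairs, with 23 above 0.1. Differently numbered arrays had a median of -5e-04 over 306 pairs, with 107 above 0.1. Same-numbered arrays were thus no more alike by this measure. Deviations within each small group sum to 0, so it cannot settle whether the numbers pair the samples. With the replicate block the counts were 13 and 8 between days without and with cover, 0 for the interaction, 41 and 30 from closure to day 3, and 34, 0, 34 and 2 against unwounded skin for uncovered and covered wounds at day 3, then at day 5. Probes near background give bounds only, and these hold on the scanner scale alone. The 2 unwounded arrays limit every comparison with them.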
